A study of Rattus norvegicus with 2 samples.

Results

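The genes described here are the ATP-binding cassette (ABC) transporters of subfamilies A to G, the organic anion transporting polypeptides (Slco genes) and the organic cation, carnitine and organic anion carriers (Slc22a genes) in the nucleus tractus solitarius (NTS) of the rat. They were taken from the array by a rule on the gene name of the probe, which itself uses no measured value. The rule was chosen with earlier results of these data known. The rule found 82 genes among 18393 genes with a symbol on the array, and 68 of them had at least 1 probe well above background on both arrays, against 15277 of all genes. Only these 68 genes entered the counts, and the other 14 are described separately.

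Visceral and cardiovascular afferents end in the NTS, a nucleus of the brainstem, and the study asked whether gene expression there differs between the sexes. The animals were male and female Wistar Kyoto (WKY) rats, an inbred normotensive strain, all 9 weeks old, and the labels name no other genotype or treatment. RNA of 5 rats per sex went into a pool in equal parts of 100 ng, and 1 single-colour Agilent array was run for each pool. With 1 array per sex and 5 rats merged in each pool, the spread between rats was not measured, differences have no replicate check, and a test was not possible.

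ABC transporters use ATP to move lipids, sterols, drug conjugates or ions across membranes, whereas Slco and Slc22a proteins carry organic ions into or out of cells. In the brain the best known members sit in capillary endothelium, where P-glycoprotein and the breast cancer resistance protein return drugs to the blood, and in the choroid plexus and the meninges. Other members serve all cells: they supply peroxisomes with fatty acids, mitochondria with haem intermediates or ribosomes with recycling factors.

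Every signal below is the processed fluorescence intensity of a probe, in the scanner's arbitrary units, and a pair of signals gives the male array first. Every difference is female minus male on the log2 scale, after each array was set relative to the 75th percentile of its rat spots. Probes differ in how brightly they hybridise, so no signal is set against that of another gene. The technical error used is the SD of the difference over repeated spots of one probe. It was 0.33 for the dimmest class of probes, those over 64-fold below the 75th percentile, and 0.15 for those 16- to 64-fold below. It was 0.09 for those 4- to 16-fold below and 0.07 for brighter ones, and it does not hold the spread of rats or of labelling. An SE over the spots of a probe leaves out the same, and also the scaling of the arrays. Directions rest on the scaling. Spike-in controls would shift all genes by 0.67 towards the female array, so that all 68 genes would be higher there, and every direction below is relative to the other genes of the array.

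The 42877 rat spots were well above background in 85.5% of cases on the male and 87.9% on the female array, and 0 were saturated. The 7 marker genes of NTS and dorsal vagal neurons used here, among them Dbh, the enzyme of noradrenaline synthesis, were all well above background on both arrays.

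The probe sequences come first, because probes of the same gene gave unlike values at several genes. The part of probe position in these values was not tested. All probes are 60 bases long, written 5′ to 3′ as the array files give them, and the positions are those of the files in the rn4 build. Exon and intron annotation of that build was not used here. Abcb1b, one of the rat genes for P-glycoprotein, had 2 probes at chr4:21912155-21912214 and chr4:21912180-21912239. They overlap by 35 bases, shown in capitals:
Abcb1b probe 1: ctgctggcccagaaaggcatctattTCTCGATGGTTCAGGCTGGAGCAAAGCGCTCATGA
Abcb1b probe 2: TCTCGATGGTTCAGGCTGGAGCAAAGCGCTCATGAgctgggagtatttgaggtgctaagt

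Abcc12, a relative of the multidrug resistance proteins with little known function, had 2 probes at chr19:21962338-21962397 and chr19:21962696-21962755, which start 358 bases apart in the transcript. Abcc12 probe 1 ends with the first stop codon of its open frame, in capitals. The probes are shown because their values in the 2 pools went opposite ways. Of the second probe the first 30 bases are given:
Abcc12 probe 1: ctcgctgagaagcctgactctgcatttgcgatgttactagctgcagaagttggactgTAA
Abcc12 probe 2: tttccgtccaaaagcagtaaaagcgaatga

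The probes of 3 capillary transporters are shown because they differ in base composition, with G and C in capitals in the first 30 bases:
Abcb1a: GtaaatatttGataatatataCttttattt
Abcg2: CCCttGaaaGGaCtattGataGtaCtCCta
Slco1c1: GaCCCGaCtttaaGaaCaaGaaatCaCGGa

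These stretches hold 3, 12 and 13 G or C bases. The whole Abcb1a probe, at chr4:21795859-21795918, had 10, the fewest of all 101 probes of the transporter genes. The next lowest had 16, the median was 27 and the highest 33. The Abcg2 probe lies at chr4:87559902-87559961 and the Slco1c1 probe at chr4:179006520-179006579.

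None of the 68 counted transporter genes differed 2-fold or more between the pools. Among all 15277 genes counted, 80 did, or 0.524%, of which 17 (0.111%) had the higher female value and 63 (0.412%) the higher male value. At 1.5-fold the transporter genes gave 1 of 68, Slc22a13, with the higher female value, against 2.46% of all genes in either direction and 0.91% in that one. The differences of the 68 genes ran from -0.48 to 0.72 with a median of -0.019, against a median of -0.014 over all genes. Their median absolute difference was 0.12, against 0.093. In the female pool 28 of the 68 were higher (41.2%), against 45.7% of all genes. With scaling by the array median the split was 36 female-higher to 32 male-higher, and with quantile normalisation 34 and 34.

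A smaller yardstick is the spread of repeated spots. Of the 68 genes, 17 differed by over 2 spot SDs (25%), against 19.3% of all genes. The 8 with the higher female value were Abca8a, Abcb4, Abce1, Abcg1, Abcg2, Slc22a13, Slco1c1 and Slco3a1, or 11.8% against 7.14% of all genes. The 9 with the higher male value were Abca1, Abca3, Abca7, Abcb8, Abcc1, Abcf3, Slc22a23, Slc22a3 and Slc22a6, or 13.2% against 12.2%. These shares describe the 2 arrays and are no test of sex. All 17 kept their direction under each other setting that gave them a value, apart from spike-in scaling, but 10 of them did not stay beyond 2 spot SDs under at least 1 of these settings. The 7 that did were Abca7, Abca8a, Abcg1, Abcg2, Slc22a3, Slc22a6 and Slco1c1, although Abca7, Abcg1 and Slc22a6 have no value without the bands of array rows described below. Slc22a23 lay at -0.0013 without those bands, with the brightest probe and with probes brighter than the median probe, and Abca3 at -0.032 with the brightest probe. For a gene with 1 spot, the filters, the choice of probe, kept flags and the value table return nearly the same value. Apart from spike-in scaling, such a gene is checked only by median scaling, quantile normalisation, loess and normexp.

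**Figure D1:**
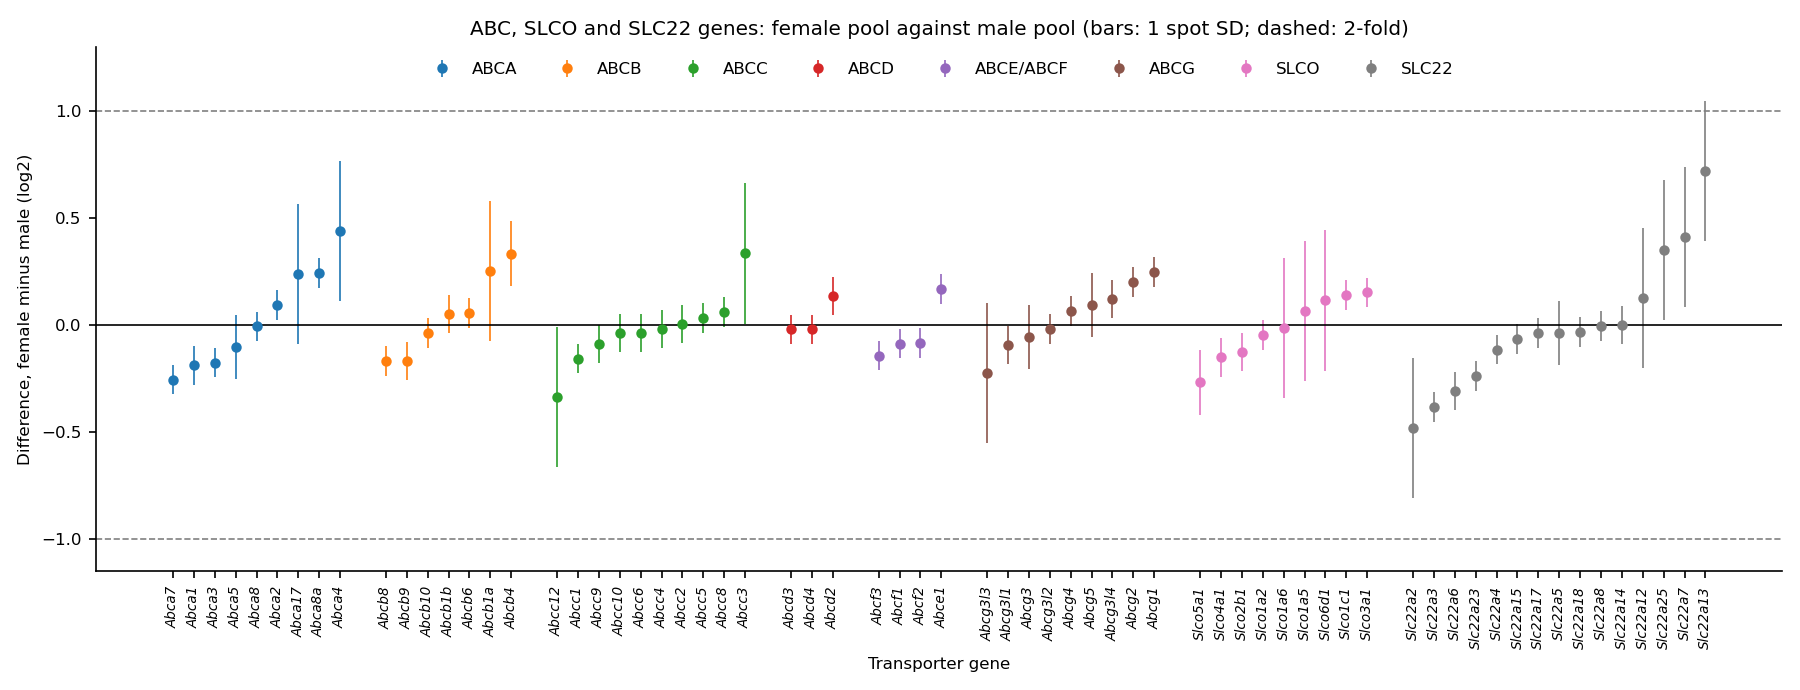
Difference between the pools (female minus male, log2, relative to each array's 75th percentile) for 66 of the 68 transporter genes counted, by subfamily, with bars of 1 spot SD on each side for the gene's brightness and dashed lines at 2-fold. No gene reaches 2-fold, Slc22a13 stands highest at 0.72 and Slc22a2 lowest at -0.48, and under spike-in scaling all 66 would lie above 0.

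The dimmest transporter genes were more often higher in the female pool and the brightest more often in the male pool. Among the 14 dimmest transporter genes, over 64-fold below the 75th percentile, 10 had the higher female value, and the median was 0.18. All genes of that class had a median of 0.046, and 56.1% of them were higher in the female pool. Of the 31 brightest transporter genes 11 had the higher female value, and the median was -0.020, against 44.3% of all genes in that class. The 2 classes between held 7 genes with a median of -0.054 and 16 with a median of -0.037.

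**Figure D2:**
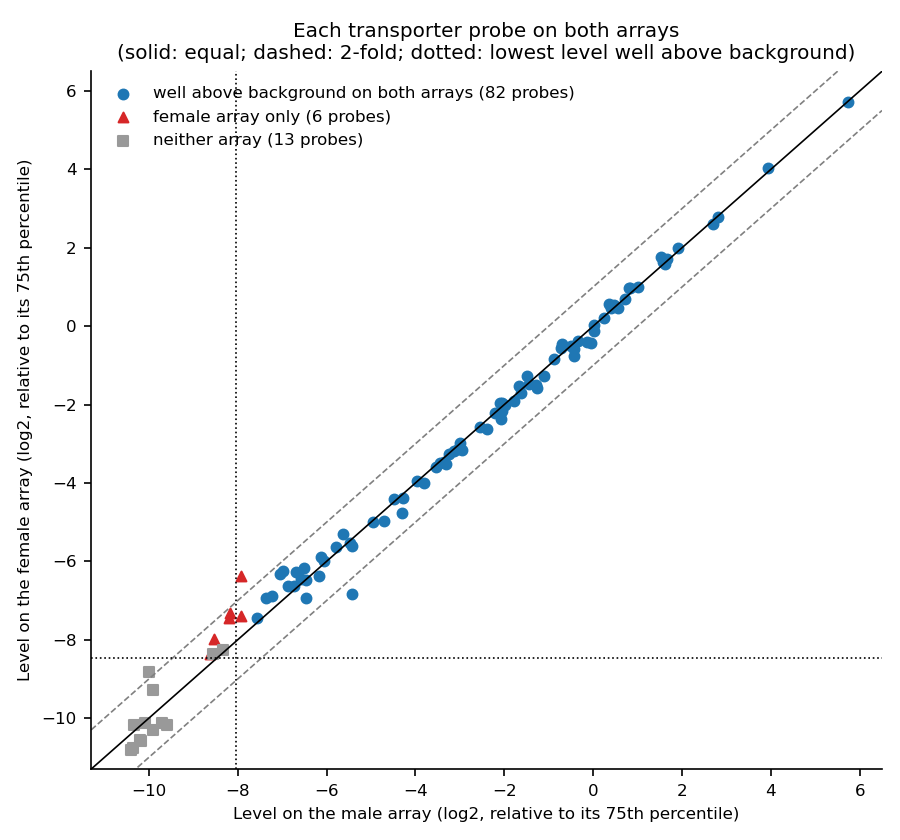
Level of each transporter probe on the female array against its level on the male array (log2, relative to the 75th percentile), with the floor of each array drawn at the lowest level that was well above background (dotted) and dashed lines at 2-fold. Bright probes lie along the line of equal level, dim probes scatter around it, and 6 probes are well above background on the female array alone while 0 are so on the male array alone. Spike-in scaling would raise every female level by 0.67 against the male level.

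Among the transporters of brain capillaries, Abcg2, Slco1c1 and Abcc1 differed by more than 2 spot SDs, as did 19.3% of all genes. Abcg2 and Slco1c1 had the higher female value, Abcc1 the higher male value. With median scaling the Abcc1 difference was -0.12, within 2 spot SDs. Of 12 listed genes 11 had a probe under the listed name and all 11 were counted. The female pool was higher for 6 and the male pool for 5, with a median of 0.033 and a range from -0.16 to 0.25.

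P-glycoprotein, the broad drug efflux pump of capillaries, is encoded by Abcb1a and Abcb1b in the rat. The Abcb1a probe gave 49.0 and 57.3, a difference of 0.25, which was within the spot SD of 0.33 at that brightness. The first Abcb1b probe gave 1084 and 1177, a difference of 0.14 at a spot SD of 0.07, with the female array higher. The second gave 313 and 299, a difference of -0.041, which was within the spot SD of 0.09. The overlapping probes printed above thus lay on opposite sides of 0, but the second was too near 0 to set a direction. Their level on the male array differed by 1.79 on the log2 scale although they share 35 bases.

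Abcg2 encodes the breast cancer resistance protein, the other main efflux pump of capillaries. It gave 1228 and 1387, a difference of 0.20 at a spot SD of 0.07. The value was between 0.20 and 0.24 under every setting but spike-in scaling, although most of them leave a gene with 1 spot nearly unchanged.

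Abcc1, Abcc4 and Abcc5 encode multidrug resistance-associated proteins, which export glutathione and glucuronide conjugates and, for Abcc4 and Abcc5, cyclic nucleotides. Abcc1 had 3 probes. They gave 2568 and 1991, a difference of -0.34, then 2570 and 2267, a difference of -0.16, and last a dim pair of 77.1 and 73.3, a difference of -0.047. All 3 were higher on the male array, by unequal amounts, and the gene value, their median, was -0.16. The Abcc4 probes differed by -0.031 and -0.0073. The repeated Abcc5 probe averaged 10981 and 11071, a difference of 0.040, and the other gave 1877 on both arrays, a difference of 0.025. Neither gene differed by more than 1 spot SD.

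Of the uptake carriers on this list, only Slco1c1 differed by more than 2 spot SDs. Slco1c1, the thyroxine carrier of brain capillaries, gave 6135 and 6641, a difference of 0.14 at a spot SD of 0.07. The probe named Slco1a2 on the array carries an accession that the RefSeq table of the GRCr8 assembly assigns to Slco1a4, the main Slco1a carrier of rat capillaries. It gave 4072 and 3875, a difference of -0.046. Slco1a5, a close relative, gave 51.8 and 53.3, a difference of 0.067. Slco2b1, a carrier of steroid sulfates, gave 829 and 748, a difference of -0.12 at a spot SD of 0.09, with the male array higher. With normexp the Slco2b1 difference was -0.035. Slc22a8, the organic anion exchanger of capillaries and choroid plexus, gave 2419 and 2370, a difference of -0.0036. Its direction turned under median scaling, quantile normalisation and loess, and that of Abcc4 likewise.

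These values stand beside those of endothelial marker genes, a list chosen, like the other marker lists, with earlier results of these data known. All 13 markers were counted, 12 were higher in the female pool, against 45.7% of all genes, and the median of the markers was 0.18. Their summed level, in units of the 75th percentile, was 7.55 for the male and 8.62 for the female array. A summed level, here and below, weighs the brightest probes of a list most. Abcb1a, Abcg2 and Slco1c1 are 3 of the 13. Of the others, the junction gene Cldn5 differed by 0.21 and the glucose carrier Slc2a1 by 0.26, the largest values. Esam, Ocln and Tek lay between 0.18 and 0.19, and Tie1 at -0.14. Flt1, Pecam1, Cdh5 and Mfsd2a were higher in the female pool by less than 1 spot SD, like Abcb1a. With normexp background correction the median of the 13 markers was 0.045. In pooled tissue, more cells of a type and more RNA per cell cannot be told apart, and the part of endothelial content in the values of Abcg2 and Slco1c1 was not tested. Of 10 pericyte and smooth muscle markers 5 had the higher female value, with a median of 0.027 and summed levels of 3.26 and 3.36.

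**Figure D3:**
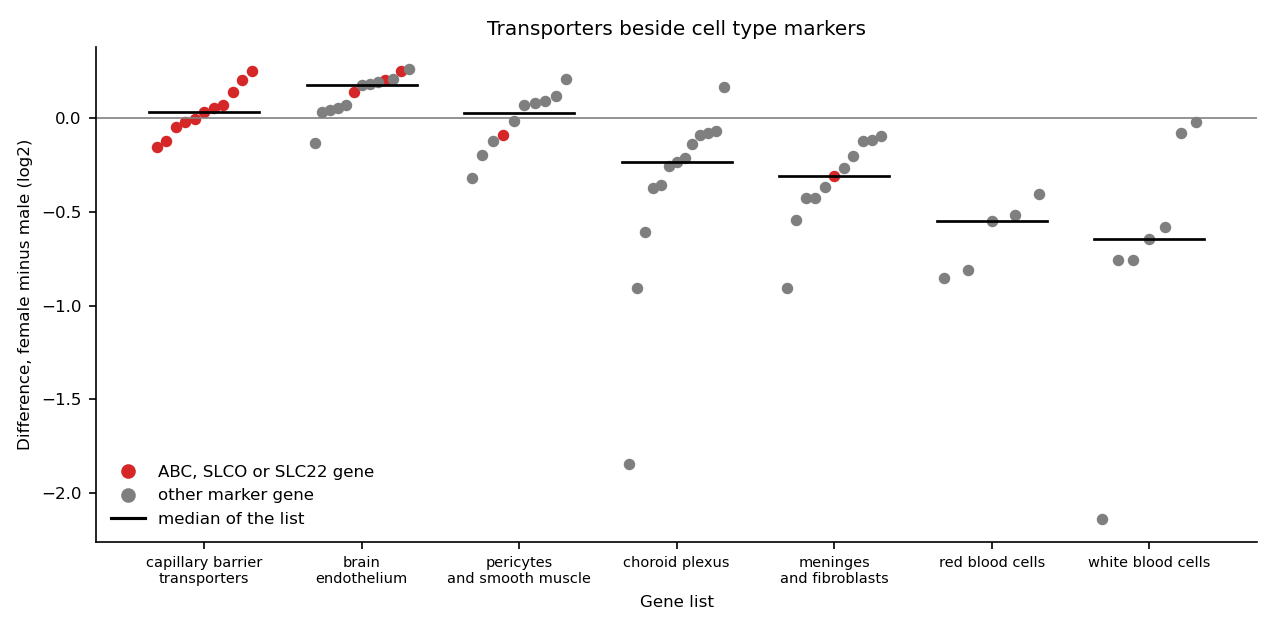
Differences between the pools (female minus male, log2) for the capillary transporters and for marker genes of 6 cell types, with 1 point per gene (red for ABC, SLCO or SLC22 genes, grey for others) and a bar at the median. Endothelial markers lie mostly above 0 with a median of 0.18, choroid plexus and meningeal markers mostly below 0 with medians of -0.23 and -0.31, and spike-in scaling would raise every point by 0.67.

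Medians by subfamily lay near 0, between -0.084 and 0.068. Apart from spike-in scaling, which gave medians of 0.59 to 0.74, the median kept its sign under every setting in ABCE/ABCF and SLC22, both on the male side. The medians nearest 0 were -0.013 in ABCE/ABCF and -0.00027 in SLC22, the latter hardly apart from 0. It changed sign under at least 1 other setting in ABCA, ABCB, ABCC, ABCD, ABCG and SLCO. In ABCG that setting was leaving out the bands of array rows, which gave -0.012.

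The ABCA genes, which move phospholipids and sterols, split 4 to 5, with a median of -0.0056 over the 9 counted of 11. Abca1 and Abca7 load cellular lipid onto apolipoproteins, and both were higher in the male pool. Abca1 gave 442 and 381, a difference of -0.19 at a spot SD of 0.09. It stayed beyond 2 spot SDs under 7 of 11 other settings, spike-in scaling not counted. These 7 leave a gene with 1 spot nearly unchanged. Under median scaling, quantile normalisation, loess and normexp, which can change it, Abca1 lay between -0.17 and -0.15, within 2 spot SDs. Abca7, a risk gene for Alzheimer's disease, gave 3118 and 2569, a difference of -0.25 at a spot SD of 0.07. Its 1 spot lies in a band of array rows with a raised share of dim spots whose male signal was far higher, the same side as Abca7. Abca3, best known from the surfactant bodies of the lung, differed by -0.32 at one probe and by -0.032 at the other, which was the brighter.

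On the female side stood Abca4, Abca8a and Abca2. Abca4, the retinoid flippase of photoreceptors, gave only 20.7 and 27.6, a difference of 0.44 at a spot SD of 0.33. With normexp background correction its difference was 0.0059. Abca8a differed by 0.24, from a probe spotted 10 times with 1 spot left out as an outlier. In 8 of its 9 spots the female value was higher, and the differences ran from -0.50 to 0.39 with a median of 0.34. The SD of these spots was 0.28, against 0.07 for probes of that brightness. A single spot gave 1400 on the female array, where the median was 2620. Abca2, a lipid transporter of myelinating oligodendrocytes, differed by 0.096 with an SE of 0.029 over spots, and the female value was higher in 10 of 10 spots. Of 9 oligodendrocyte markers 7 had the higher female value, with a median of 0.16 and summed levels of 24.96 and 25.97, and their part in the Abca2 value was not tested. Abca5, Abca8 and Abca17 lay at -0.10, -0.0056 and 0.24.

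Apart from the P-glycoprotein genes, the ABCB subfamily holds a phospholipid pump, a lysosomal peptide carrier and several mitochondrial members. It split 4 to 4, with a median of 0.0079 over the 8 counted of 9. Abcb4, which delivers phosphatidylcholine to bile in the liver, gave 69.0 and 85.5, a difference of 0.34 at a spot SD of 0.15. With normexp its difference was 0.14. Abcb8, a mitochondrial member, gave 1609 and 1408, a difference of -0.17 at a spot SD of 0.07. Abcb10, which acts in mitochondrial haem synthesis, lay at -0.036. Abcb6, a porphyrin transporter, gave -0.096 and 0.21 at its 2 probes, so its direction rests on the probe. Abcb9, the lysosomal peptide carrier, gave -0.24 and -0.094, and the repeated probe was lower on the female array in all but 1 of 10 spots.

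The remaining ABCC genes lay close to equal, apart from 2 dim ones. The subfamily of 10 had a median of -0.028, with 4 genes on the female side and 6 on the male side. Abcc3, an exporter of bile salts and glucuronides, gave 37.9 and 47.0, a difference of 0.34 at a spot SD of 0.33. Abcc2, its relative in the apical membrane of liver and kidney, averaged 433 and 426 over 10 spots, a difference of 0.0044 with an SE of 0.015. Abcc6 and Abcc10 lay at -0.037 and -0.038. Abcc8 and Abcc9 are sulfonylurea receptors, the regulatory subunits of ATP-sensitive potassium channels. Abcc8 gave 4524 and 4641, a difference of 0.063. Abcc9, the subunit of pericytes and smooth muscle, gave 333 and 308, a difference of -0.088 at a spot SD of 0.09, and its other 2 probes were below background on both arrays. The pore subunits Kcnj8 and Kcnj11 differed by 0.071 and -0.22.

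At Abcc12 the 2 probes printed above disagreed. Probe 1 gave 80.5 and 29.7, a difference of -1.41. Probe 2 gave 27.1 and 44.3, a difference of 0.74. Each was the brighter on a different array, and the gene value between them was -0.34. The probes differed by 2.15 on the log2 scale, or 4.43-fold, the widest range among all 2770 genes with several counted probes. Each rests on 1 spot in the dimmest class, and with normexp the probes gave -0.57 and 0.20.

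The ABCD genes, which import fatty acids into peroxisomes, and the ABCE and ABCF genes, which act on ribosomes and do not transport, held 4 genes each, all counted. In each group 1 gene was higher in the female pool. Abcd2, a carrier of very-long-chain fatty acids, gave 800 and 865, a difference of 0.14 at a spot SD of 0.09. Abcd3, the abundant peroxisomal membrane protein, gave 23962 and 23220, a difference of -0.020, and Abcd4, a lysosomal cobalamin transporter, lay at -0.019. The direction of Abcd3 turned under median scaling and quantile normalisation, and that of Abcd4 under median scaling and loess.

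Abce1, which splits ribosomes after termination, gave 6045 and 6674, a difference of 0.17 at a spot SD of 0.07. The translation factors of subfamily F were on the male side. Abcf1 gave 22400 and 20743, a difference of -0.085, and Abcf3 gave 3502 and 3120, a difference of -0.14. Abcf2 had a probe of 1414 and 1188, a difference of -0.23 at a spot SD of 0.07, and a repeated brighter one at 0.060, with a gene value of -0.083.

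The ABCG genes, which move sterols and, for Abcg2, drugs, had a median of 0.068, with 5 of 9 counted genes higher in the female pool. Abcg1, which passes cholesterol to high-density lipoprotein, gave 9842 and 11482, a difference of 0.25 at a spot SD of 0.07. This probe, at chr20:9459359-9459418, has 1 spot. It lies in a band of array rows with a raised share of dim spots whose male signal was far higher, the opposite side to Abcg1. Abcg4, its close relative in neurons and glia, averaged 12972 and 13358 over 10 spots, a difference of 0.068 with an SE of 0.019, and 9 of 10 spots were higher on the female array. The sterol efflux genes Abca1 and Abcg1 thus lay on opposite sides. Their regulators, the liver X receptors Nr1h2 and Nr1h3, differed by 0.037 and -0.23, and the lipid acceptor Apoe by 0.029. Abcg3l3, one of several rodent Abcg3 relatives, gave 48.1 and 40.5, a difference of -0.22 at a spot SD of 0.33. The other Abcg3 genes lay between -0.092 and 0.12, and Abcg5, a sterol exporter of gut and liver, at 0.096.

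The Slco genes outside the capillary list were split as well, and the subfamily median was -0.013 over 9 counted of 15. Slco3a1, a carrier of prostaglandins and thyroid hormone, gave 2097 and 2291, a difference of 0.15 at a spot SD of 0.07. Slco4a1, another thyroid hormone carrier, gave 805 and 712, a difference of -0.15 at a spot SD of 0.09. Slco5a1, whose substrates are poorly known, gave 133 and 108, a difference of -0.27 at a spot SD of 0.15. Slco1a6 and Slco6d1 lay at -0.013 and 0.12, each within 1 spot SD.

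The Slc22a genes spanned the whole range of the transporter genes, with a median of -0.035 over 15 counted of 19, 5 of them on the female side and 10 on the male side. The widest differences were in dim genes. Slc22a13, an exchanger of urate and nicotinate in kidney, gave 26.1 and 42.3, a 1.65-fold difference of 0.72 at a spot SD of 0.33. Its probe lies at chr8:124159976-124160035. The other Slc22a13 probe gave 14.1 and 20.1 and was well above background on the female array alone. Slc22a7, a liver and kidney organic anion carrier, gave 33.2 and 43.5, a difference of 0.41. With normexp the 2 genes differed by 0.14 and 0.079. Slc22a2, the kidney organic cation carrier, gave 38.9 and 27.4, a difference of -0.48 at a spot SD of 0.33.

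Among brighter Slc22a genes, Slc22a3 and Slc22a6 had the higher male value. Slc22a3, the carrier of extraneuronal monoamine uptake, gave 3341 and 2517, a difference of -0.38 at a spot SD of 0.07. It was named after its values were seen, and its probe lies at chr1:42781492-42781551. Slc22a6, the organic anion carrier of kidney, choroid plexus and meninges, gave 819 and 649, a difference of -0.31 at a spot SD of 0.09, at chr1:211302331-211302390. Its 1 spot lies in a band of array rows with a raised share of dim spots whose male signal was far higher. Slc22a6 differed towards the same side, and the part of the band in its value was not tested. Slc22a3 lay between -0.38 and -0.35 and Slc22a6 between -0.31 and -0.27 under the other settings that gave them a value, except spike-in scaling, which gave 0.29 and 0.36, with the female value higher.

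Markers of tissue at the brain surface were lower on the female array as well. Meningeal and fibroblast markers were higher in the male pool for 11 of 11 counted genes, Slc22a6 being 1 of them, with a median of -0.31. Their summed levels were 19.2 and 13.3. The brightest of them, Col1a2, differed by -0.90, and the counted genes ran from -0.90 to -0.095. The remaining marker, Slc13a4, was not counted, and its signals of 11.9 and 14.0 were higher on the female array. Choroid plexus markers were higher in the male pool for 12 of 13 genes, with a median of -0.23 and summed levels of 19.96 and 17.46. The brightest of these, Ttr, differed by -0.21, and the 13 genes ran from -1.84 for Cldn2, with signals of 144 and 39.3, to 0.16 for Slc4a5. Every counted blood cell marker was higher on the male array. The 5 counted red cell markers had summed levels of 40.5 and 30.3, and the 7 counted white cell markers 0.44 and 0.28. White cell markers ran from -2.14 for Ltf, with signals of 79.7 and 17.8 at a spot SD of 0.33, to -0.021 for Cd79b. Hbb, the brightest red cell marker, differed by -0.41. Epb42 and Cd3e were not counted, and both had the higher female signal, at 15.9 and 19.6 for Epb42 and 3.92 and 5.62 for Cd3e. The part of meningeal, choroid plexus or blood RNA in the values of Slc22a3, Slc22a6 and the other genes higher in the male pool was not tested. Of 9 microglial markers 2 had the higher female value, with a median of -0.16, and of 9 astrocyte markers 2, with a median of -0.10. Neuronal markers gave 3 of 7 with a median of -0.010, and NTS neuron markers 4 of 7 with a median of 0.026. The NTS neuron markers ran from -0.19 for Gcg to 0.62 for Prlh, which gave 14828 and 22425 at a spot SD of 0.07.

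Most other Slc22a genes were nearer to equal. Slc22a17, the receptor for lipocalin-bound iron, averaged 184590 and 176972 over 10 spots, a difference of -0.035 with an SE of 0.0083, and 2 of 10 spots were higher on the female array. Under the settings other than spike-in scaling the Slc22a17 difference ran from -0.035 to -0.00036. Slc22a4, the ergothioneine carrier, and Slc22a5, the carnitine carrier, lay at -0.11 and -0.035. Slc22a12, Slc22a14 and Slc22a18 lay at 0.13, 0.00057 and -0.031, and Slc22a25 at 0.35 with signals of 22.9 and 28.7. Slc22a23, an orphan carrier, had a dim probe of 174 and 123, a difference of -0.47, and a brighter one of 6912 and 6785, a difference of -0.0013 over 10 spots. The 2 probes of this gene thus lay 0.47 apart, and the gene value was -0.24. The 1 spot of the dim probe lies in a band of array rows with a raised share of dim spots whose male signal was far higher. The dim probe differed towards the same side. Slc22a15 gave -0.19 and 0.067 at its 2 probes, again with the dimmer on the male side.

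Single spots of repeated probes can stand apart. The spots of Abca2 had a median of 0.072 and a highest value of 0.35, those of Abcc5 a median of 0.024 and a highest of 0.27, and those of Abcf2 a median of 0.018 and a highest of 0.41. Of the 82 transporter genes 60 have 1 spot in all, where such a spot could not be seen.

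**Figure D4:**
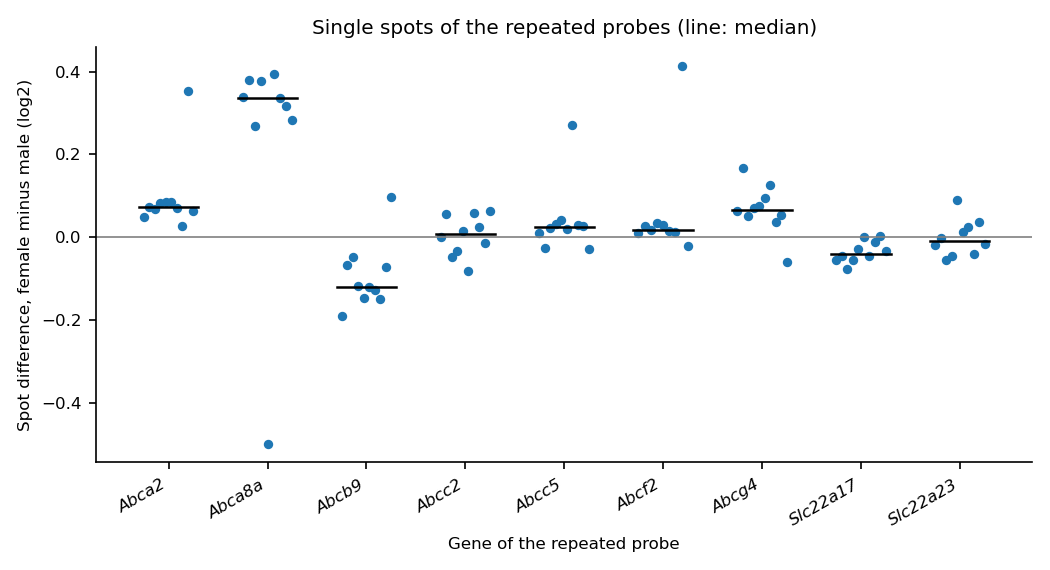
Difference between the pools (female minus male, log2) for each single spot of the transporter probes that were spotted repeatedly and counted, with a line at the median of each probe. The spots of Slc22a17 and Abcc2 lie close together, the spots of Abca8a run from -0.50 to 0.39, and spike-in scaling would raise every spot by 0.67.

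Probes of a gene disagreed in the transporter genes as follows. Of the 13 with several counted probes, 1 had probes that differed 2-fold or more (7.69%), against 28 of 2770 genes (1.01%). At 1.5-fold the count was again 1, against 99 genes (3.57%). The median range between probes was 0.28, against 0.14. Probes lay on opposite sides of 0 in 6 of the 13 (46.2%), against 45.9% of all genes with several probes. Brightness differed far more than the difference between the pools did. On the male array the brightest probe of a gene exceeded the dimmest by a median of 7.23-fold, and by 1.15- to 39.7-fold over the 13 genes, against a median of 4.37-fold over all genes. In 8 of the 13 it was 4-fold or more (61.5%), against 52.5%. No 2 probes of different transporter genes shared a run of more than 12 bases.

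**Figure D5:**
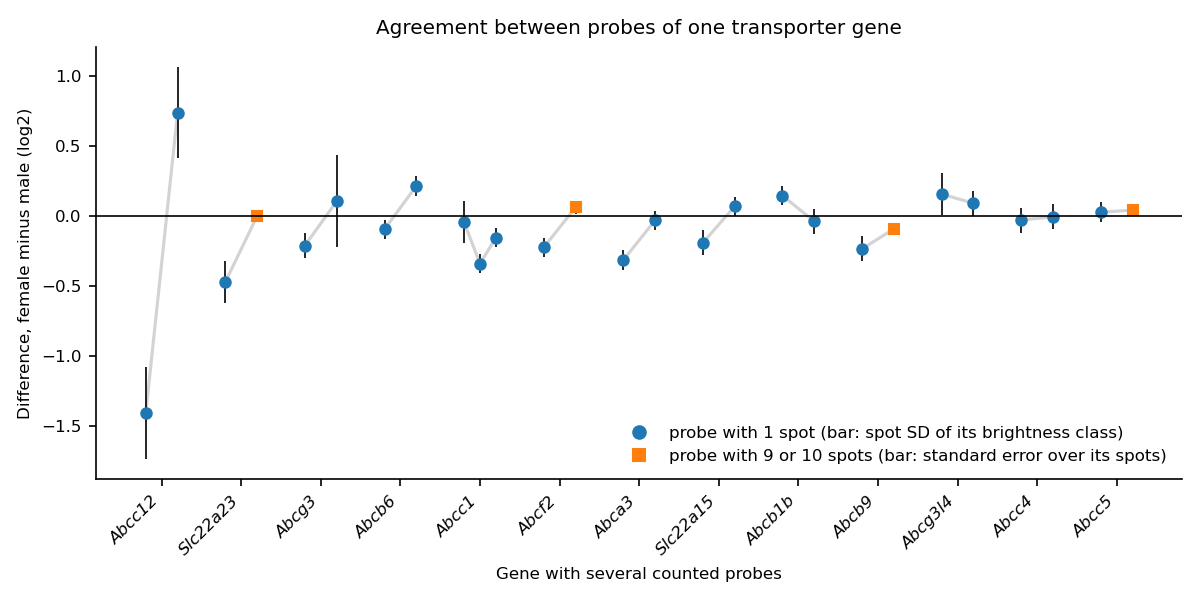
Difference between the pools (female minus male, log2) for each counted probe of the 13 transporter genes with several counted probes, with a line joining the probes of a gene. Bars are the spot SD of the brightness class for probes with 1 spot (circles) and the SE over 9 or 10 spots for repeated probes (squares). Abcc12 spans -1.41 to 0.74 and Slc22a23 -0.47 to -0.0013, while the probes of Abcc4 and Abcc5 nearly coincide, and spike-in scaling would raise every probe by 0.67.

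A further 4 genes were well above background on the female array alone and 0 on the male array alone. By probe the numbers were 6 of 101 (5.94%) and 0, against 3.69% and 0.57% of all 30344 rat probes with a value on both arrays. The lowest signal that passed as well above background, here called the floor, was 13.1 and 9.59, lower on the female array. Differences of these genes are bounds against the male floor or the male signal, whichever was higher. Slco1b2, a liver carrier of bile salts, gave 11.8 and 21.3, a bound of 1.65-fold. Its repeated probe was above background on neither array. Slco4c1, a kidney carrier, gave 11.8 and 19.3, a bound of 1.496-fold. Each bound rests on 1 spot in the dimmest class, with a spot SD of 0.33. With normexp the Slco1b2 and Slco4c1 probes differed by 0.11 and 0.066. The filter passed both genes through the female array alone, so their side is no support for a difference between the pools. Slc22a20 gave 8.78 and 10.2, and no fold was formed because its female level lay below the male floor.

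The other 10 genes were well above background on neither array: Abca13, Abca15, Abcb11, Abcg8, Slc22a22, Slc22a24, Slco1a1, Slco2a1, Slco6b1 and Slco6c1. Abcb11, the bile salt export pump of the liver, Abcg8, the sterol partner of Abcg5, and Slco1a1, a liver and kidney carrier, are among them. A signal below background sets only a bound at these probes.

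Genes that work with these transporters at the barrier were taken from a list of 42, of which 39 were counted. The female value was higher for 22 and the male value for 17, with a median of 0.021 and a range from -0.42 to 0.26, and 0 differed 2-fold. The xenobiotic receptor Nr1i2, which induces P-glycoprotein, gave 237 and 197, a difference of -0.24, while Nr1i3 lay at 0.093. Tap1 and Tap2, the peptide transporters of antigen presentation, belong to the ABCB subfamily under other names, and they lay at -0.026 and -0.11. The chloride channel Cftr, an ABCC protein by sequence, was above background on neither array.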

How the data were processed

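Per the labels' protocols, the NTS was cut out between 1.0 mm in front of and 0.5 mm behind the calamus scriptorius, RNA integrity numbers were above 7, and 150 ng of each pool was labelled with Cy3. Per the file headers, the deposited intensity values are processed signals of Agilent Feature Extraction 10.7.3.1, background-subtracted within each array with no scaling between arrays. The submitters' processing notes name version 9.1. Both arrays lay on 1 slide. The deposited value table held the same intensity values divided by 1 constant per array, with medians of 28.0 and 27.3, linear and not centred.

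Control spots and 430 spots flagged as outliers were left out. The log2 signal was set relative to the 75th percentile of all rat spots, which was 3441 for the male and 3380 for the female array. Spots of a probe were averaged, and a gene is the median of its probes well above background on both arrays. Signals are means over spots. Symbols are those of the array files, and 77 of 82 had an accession in the RefSeq table. The genes have 191 spots, 3 of them flagged. A probe above background on 1 array gives a bound against the other array's floor. Marker and gene lists, and members, were chosen with earlier results of these data known. Genes named with both signals are the capillary list, the 3 largest differences per subfamily, those at 1.5-fold, the 5 widest probe disagreements and bounds of 1.5-fold, and a few others named after their values were seen. Some genes within this rule are not reported here.

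Alternatives were 3 scalings (median, quantile, spike-in), loess of span 0.3, normexp with an offset of 50 (limma 3.58.1, R 4.3.3), the value table, 3 background filters, flagged spots kept, the brightest probe, the 1.5-fold threshold, current symbols, and leaving out 5 of 20 bands of array rows with over 3 times the median share of dim spots 2-fold brighter on the male array. Calculations used Python 3.11.15 and pandas 2.3.3, and steps were tested on simulated data. The number of arrays limits the precision.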

Additional observations from a re-analysis of the deposited data

How the results depend on the processing

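The count of 0 transporter genes at 2-fold held under median scaling, quantile normalisation, loess, normexp, the value table, probes brighter than the median probe, flagged spots kept, current symbols and without the bands of array rows. It was 6 with spike-in scaling (Abca4, Abcb4, Abcc3, Slc22a13, Slc22a25 and Slc22a7, all higher in the female pool), when 583 of all genes passed. It was 1 with probes above background on at least 1 array and 1 with no filter (with 352 and 681 of all genes), 1 with the brightest probe (Abcc12, higher in the male pool) and 1 at 1.5-fold (Slc22a13). With normexp 23 of all genes passed, with brighter probes 16 and without the bands 46, against 80. The median difference of -0.019 ran from -0.025 to 0.015, and was 0.65 with spike-in scaling, against 0.66 over all genes. Genes with probes 2-fold apart numbered 1, 2 with the wider filter (Abcc12 among them) and 0 with normexp. Of the 68 genes, 50 kept their direction under every setting but spike-in scaling, although most settings leave a gene with 1 spot nearly unchanged. Beside those given above, directions turned for Abca8, Abcg3l2, Slc22a12, Slc22a15, Slco1a5 and Slco6d1 with normexp, for Abcb6, Abcf2 and Slc22a15 with the brightest probe, for Abcc6 and Abcc10 with quantile normalisation, for Abcc9 with no filter, and for Abca8, Abcg3l2, Slc22a18 and Slco1a6 with median scaling. With normexp Abce1 was 0.090 and Slc22a23 -0.17. The bands left out hold 25.2% of rat spots and 17 transporter probes, Abca7, Abcg1, Slc22a6 and both of Abcb6 among them. Dim probes are limited most, with a spot SD of 0.33. No paired analysis was possible because each sex has 1 array.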

Other observations

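By current symbols the rule would also take genes that the array names otherwise. Slc22a21, a carnitine carrier of the Slc22a5 group, gave signals of 339.5 (male array) and 360.1 (female array), a difference of 0.11. Slc22a13l1 gave 36.2 and 41.6, a difference of 0.23. Abcb5 and Slco1a3 were not above background.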
